A study of Mus musculus with 10 samples.

Results

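The stefin A genes Stfa3, Stfa1, BC100530 and BC117090 form part of a cluster of closely related protease inhibitor genes on mouse chromosome 16. They were taken by name. The names were chosen by their normalised counts, which earlier results of these same data had shown to be higher after oil and acetone than after water. They are 4 of the 17983 genes listed in any of the files, and all 4 had a value in every library and passed the filter on low values, BC117090 through its oil/acetone libraries. The 10 libraries hold total RNA of keratinocytes, freed with trypsin from mouse dorsal epidermis after dispase had lifted it off the dermis.

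The libraries fell into 4 groups by genotype and by what was rubbed on the back. Mutant mice rubbed with acetone and olive oil (4 parts to 1 part) gave 3 libraries, and control mice rubbed with the same mixture gave 3. Mutant mice rubbed with water gave 2 libraries, and control mice rubbed with water gave 2. The skin was rubbed 2 times a day for 3 days, and the libraries are labelled as day 5. The mutants are labelled Gsdma1KO/KO;Gsdma3fx/fx;K14-Cre and the controls wild type, so the controls are not labelled as carrying the floxed allele or the Cre. K14-Cre acts in cells with keratin 14 activity, the basal keratinocytes of epidermis and hair follicle. Age, sex and strain are not stated in the labels used here. The labels do not tie each library to an animal of its own, so p-values measure the spread between libraries, and that spread may be technical.

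Stefins are small inhibitors that act inside the cell, where they sit reversibly in the active site of papain-like cysteine proteases such as cathepsins B, H, L and S. In humans a single gene, CSTA, encodes stefin A, a component of the cornified envelope of the outer epidermis, and its loss causes a peeling skin disorder. In the mouse the gene has multiplied into a cluster, and mouse stefin A genes are active in keratinocytes and also in neutrophils and their precursors.

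The 4 genes lie within 178.4 kb of chromosome 16 (GRCm38). Stfa1 (ENSMUSG00000071562) is at chr16:36276951-36285373 on the plus strand. BC117090 (ENSMUSG00000079594) is at chr16:36321665-36334332, BC100530 (ENSMUSG00000071561) at chr16:36359382-36367748 and Stfa3 (ENSMUSG00000054905) at chr16:36450537-36455392, all on the minus strand. RefSeq lists BC100530 as Cstdc5 and BC117090 as Cstdc6. All 4 are annotated as protein-coding, and the files give 1 value per gene, so no value refers to a single exon.

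How alike the genes are decides how well their reads can be told apart, so the last 150 coding bases of each, ending in the stop codon, are shown from the GENCODE M21 annotation of GRCm38. Capitals mark the 30 positions at which the 4 genes are not all alike.
Stfa3: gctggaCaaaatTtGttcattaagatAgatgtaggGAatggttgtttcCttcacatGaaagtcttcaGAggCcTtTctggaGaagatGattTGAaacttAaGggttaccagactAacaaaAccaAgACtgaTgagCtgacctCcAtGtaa
Stfa1: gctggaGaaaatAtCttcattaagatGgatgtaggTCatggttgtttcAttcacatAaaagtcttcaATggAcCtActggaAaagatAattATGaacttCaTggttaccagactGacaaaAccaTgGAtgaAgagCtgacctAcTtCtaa
BC100530: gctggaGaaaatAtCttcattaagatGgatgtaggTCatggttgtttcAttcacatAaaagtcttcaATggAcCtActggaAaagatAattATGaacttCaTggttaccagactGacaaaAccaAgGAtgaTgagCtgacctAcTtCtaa
BC117090: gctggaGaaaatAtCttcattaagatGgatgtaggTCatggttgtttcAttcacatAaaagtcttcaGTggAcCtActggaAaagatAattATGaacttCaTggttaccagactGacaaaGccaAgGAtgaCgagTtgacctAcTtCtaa
Over these bases Stfa1 matched BC100530 at 148 of 150 positions and BC117090 matched it at 146, whereas Stfa3 matched it at 124. Over the whole coding sequence Stfa1 and BC100530 were alike at 288 of 294 positions (98.0%), BC100530 and BC117090 at 280 of 294 (95.2%), and Stfa1 and BC117090 at 275 of 294 (93.5%). Stfa3 was the distant member, alike with the other members at 78.2% to 79.5% of 312 aligned positions.

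Windows of 50 bases of exon that recur in another gene made up 22.5% of Stfa1, 36.2% of BC100530 and 33.7% of BC117090, and 0.0% of Stfa3. With windows of 100 bases the shares were 5.1%, 15.6%, 13.5% and 0.0%. Neither the read length nor the handling of reads that fit several places is stated in the labels. The values of Stfa1, BC100530 and BC117090 are therefore uncertain where their reads could be shared, while Stfa3 shared no window at these lengths.

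Reads of these genes were few under water and many under oil/acetone. The 4 genes together took 0.181%, 0.28% and 0.161% of all reads in the mutant oil/acetone libraries and 0.0597%, 0.111% and 0.126% in the control oil/acetone libraries. They took 0.00154% and 0.00244% in the mutant water libraries and 0.00143% and 0.0097% in the control water libraries. Every oil/acetone library was above every water library, and control water replicate 2 stood above the other 3 water libraries. Since these are bulk samples, more cells that use a gene and more RNA per cell cannot be told apart.

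Stfa3, the member with the highest group means per kilobase of exon, had 19246, 21670 and 13163 normalised counts in the mutant oil/acetone libraries, against 7633, 12346 and 12388 in the control oil/acetone libraries. In the water libraries it had 173.8 and 257.9 in mutants, against 178.8 and 478.7 in controls. The mutants were above the controls in every oil/acetone library, and the genotypes overlapped under water. Per kilobase of exon, Stfa3 was the 13th most abundant of 15958 genes in the mutant oil/acetone mean and the 22nd in the control oil/acetone mean. It stood at place 1740 in the mutant water mean and 1024 in the control water mean.

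BC100530 had 13574, 25458 and 11141 normalised counts in the mutant oil/acetone libraries, against 3659, 6797 and 9377 in the control oil/acetone libraries. It had 59.1 and 124.1 in the mutant water libraries, against 58.6 and 1046 in the control water libraries. Control water replicate 2 was far above the other 3 water libraries, and the control water mean was 552 ± 698 (SD, n = 2). Per kilobase it was the 34th most abundant gene in the mutant oil/acetone mean and the 100th in the control oil/acetone mean. Gm15845, an antisense transcript whose span overlaps BC100530, had 13.5 to 24.5 normalised counts in the mutant oil/acetone libraries, 6.97 to 11.5 in the control oil/acetone libraries and 0 in all 4 water libraries. Whether counting used strand is not stated in the labels, so reads of BC100530 and of Gm15845 cannot be told apart where they overlap.

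Stfa1 had 1547, 3119 and 1720 normalised counts in the mutant oil/acetone libraries, against 603.5, 1103 and 1464 in the control oil/acetone libraries. It had 62.6 and 90.0 in the mutant water libraries, against 34.6 and 200.5 in the control water libraries. The 2 genotypes did not overlap under oil/acetone, and under water both mutant libraries fell between the 2 control libraries.

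BC117090 was the member with the lowest level. It had 121.1, 91.6 and 86.8 normalised counts in the mutant oil/acetone libraries (117, 102 and 92 reads), against 29.9, 46.8 and 38.4 in the control oil/acetone libraries (30, 49 and 35 reads). No read fell on it in either mutant water library or in control water replicate 1, and 5 reads fell on it in control water replicate 2. A count of 0 allows up to 3 reads over the group.

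**Figure D1:**
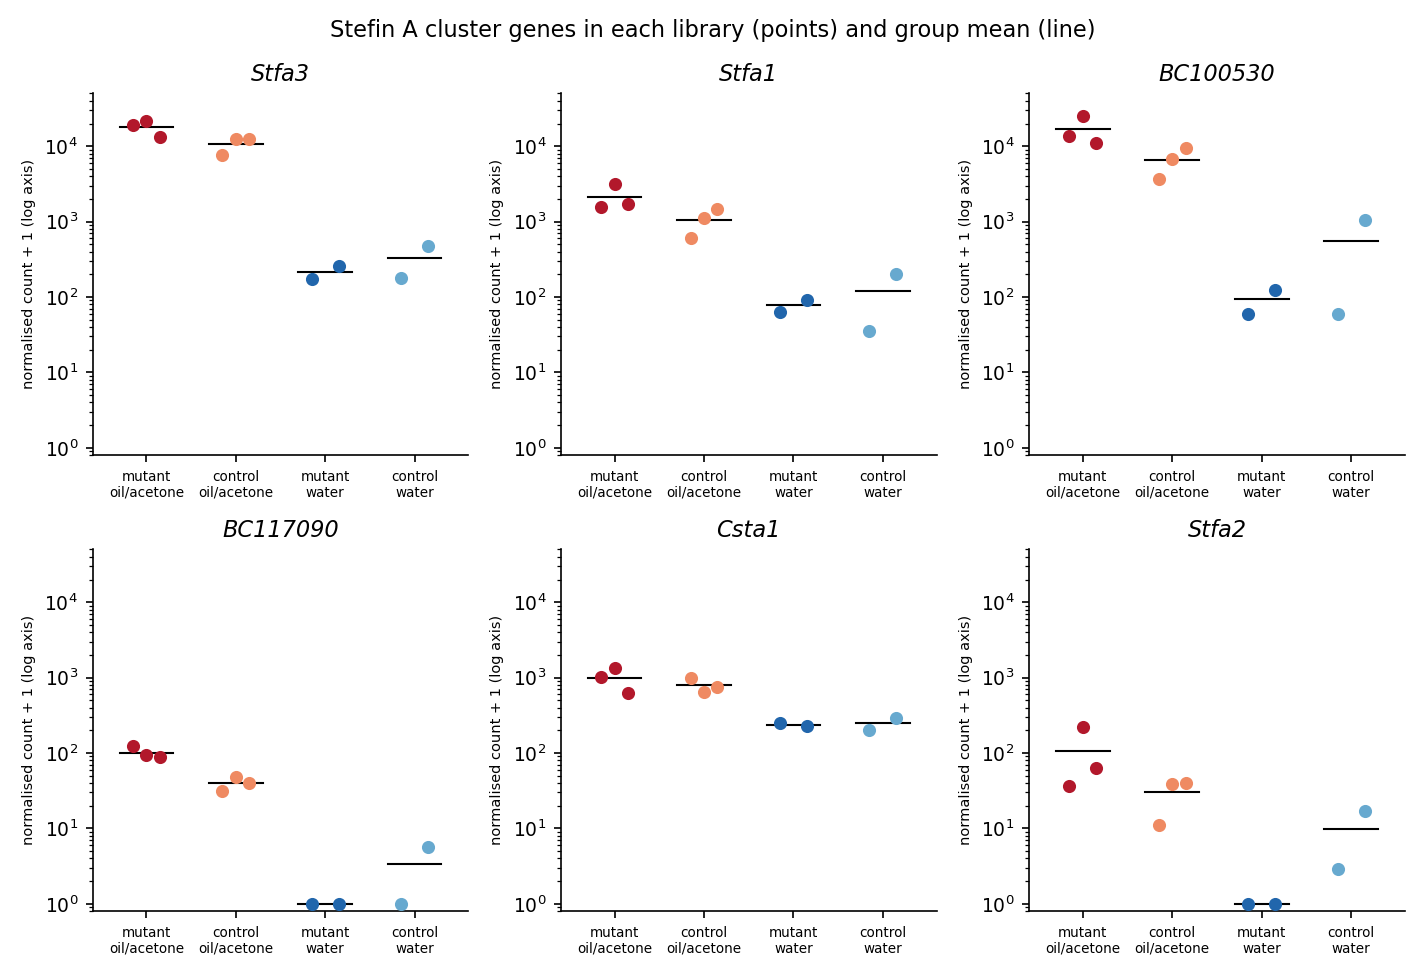
Normalised count plus 1 on a log axis for the 4 stefin genes and for Csta1 and Stfa2 of the same cluster, by group. Points are libraries and lines are group means. Stfa3 reached 7633 to 21670 in the 6 oil/acetone libraries and 173.8 to 478.7 in the 4 water libraries, and BC117090 was at 0 in 3 of the 4 water libraries.

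Per kilobase of exon, the levels under oil/acetone ran in the order Stfa3, BC100530, Stfa1 and BC117090 in both genotypes. In mutant oil/acetone libraries they averaged 43753 ± 10637, 21170 ± 9697, 2998 ± 1214 and 258 ± 47.9 normalised counts per kilobase (SD, n = 3). In control oil/acetone libraries they averaged 26187 ± 6634, 8368 ± 3625, 1489 ± 609 and 99.2 ± 21.9 (SD, n = 3). Across mutant oil/acetone libraries Stfa3 and BC100530 overlapped, with 31950 as the lowest Stfa3 value and 32225 as the highest BC100530 value, from different libraries. Within each of these libraries Stfa3 was the higher, with BC100530 over Stfa3 at 0.368, 0.613 and 0.441. The same 2 genes did not overlap between control oil/acetone libraries. In mutant water libraries Stfa3 averaged 524 ± 144, BC100530 116 ± 58.2 and Stfa1 107 ± 27.3 per kilobase (SD, n = 2), and BC100530 and Stfa1 overlapped.

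Across the 4 groups the mean of each of the 4 genes was highest in mutant oil/acetone, then control oil/acetone, then control water and then mutant water. The 2 oil/acetone groups did not overlap in any of the 4 genes, and neither did the oil/acetone and the water groups of a genotype. Of all 15958 genes tested, 8.55% were higher without overlap in mutants than in controls under oil/acetone. Between oil/acetone and water 28.8% were higher without overlap in mutants and 12.2% in controls. The 2 water groups overlapped in all 4, so the order of the water groups does not go beyond their spread.

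The next comparison asked how far oil/acetone differed from water within each genotype. The genes had been chosen for this response, so its size is given as a description and no test is made of it. In mutants the log2 difference, on log2 of the normalised count plus 1, was 6.37 ± 0.39 for Stfa3, 7.50 ± 0.93 for BC100530, 4.73 ± 0.63 for Stfa1 and 6.64 ± 0.64 for BC117090 (SE). In controls it was 5.16 ± 0.39, 4.62 ± 0.93, 3.55 ± 0.63 and 4.02 ± 0.64 in the same gene order. All 4 genes were higher without overlap in both genotypes, beside 28.8% of the 15958 genes tested in mutants and 12.2% in controls. Ordered by this difference from the highest down, the 4 genes stood at places 6 to 19 of 15958 in mutants and at places 5 to 18 in controls.

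For BC117090 the difference on this scale depends on the count added before the logarithm, because the water libraries hold almost no reads. In mutants it had 311 reads under oil/acetone and 0 under water, at least 64.6-fold higher with 3 reads over the group as the floor. In controls it had 114 reads under oil/acetone and 5 under water, a ratio of 16.2 with a 95% exact interval of 6.76 to 50.9 for counting error.

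The size of the control response rested on which control water library was kept. Without control water replicate 2 the log2 difference in controls was 5.88 for Stfa3, 6.69 for BC100530, 4.80 for Stfa1 and 5.28 for BC117090. Without control water replicate 1 it was 4.45, 2.55, 2.30 and 2.77. Whether the responses of the 2 genotypes differed was not tested, since the genes were chosen for the response.

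Other signals moved with treatment or with single libraries. The summed level of 4 Y-linked genes was 3583 to 4226 normalised counts in mutant oil/acetone libraries, 4230 to 4967 in control oil/acetone libraries and 0 in all 4 water libraries. Y-linked transcripts were thus present in exactly the oil/acetone libraries, as from males, and absent from the water libraries. Every comparison of oil/acetone with water is therefore also one between the sexes by these transcripts, and treatment and sex cannot be told apart. Control water replicate 2 stood apart from replicate 1 in a hair shaft and inner root sheath list (9 of 10 genes measured), with a sum of 11531, against 128.8 in replicate 1. The other 8 libraries ran from 157.7 to 2557. That library also held the highest water value of all 4 stefin genes, and the part of hair cells in this was not tested.

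**Figure D2:**
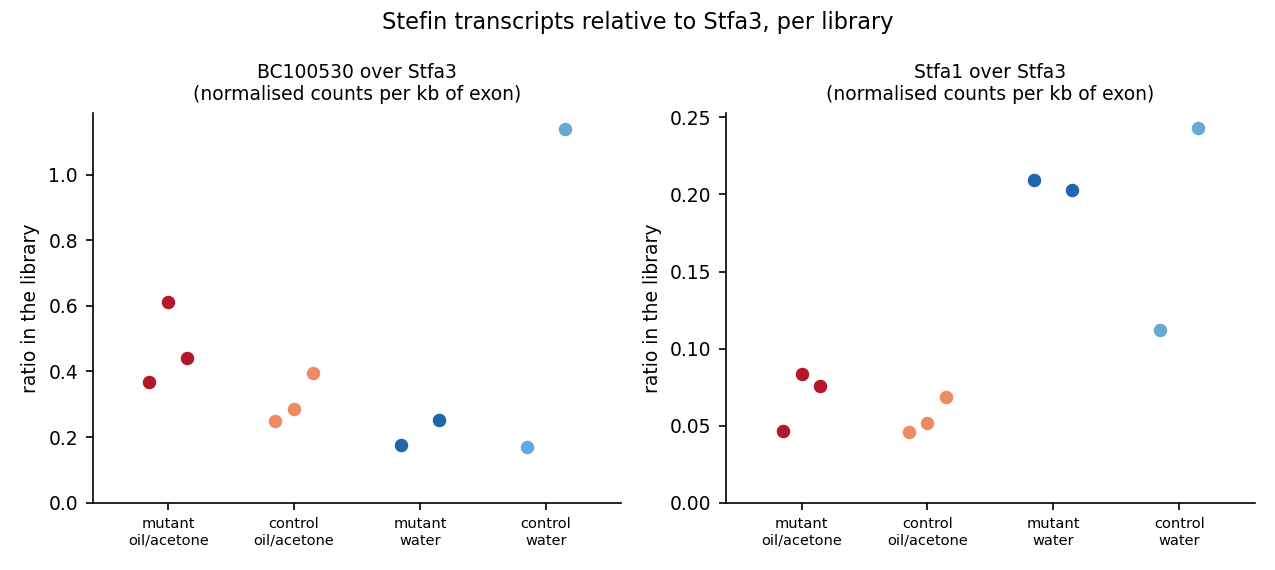
Level of BC100530 and of Stfa1 relative to Stfa3 within each library, in normalised counts per kilobase of exon; points are libraries. BC100530 over Stfa3 was 0.368 to 0.613 in mutant oil/acetone and 0.25 to 0.395 in control oil/acetone libraries, and 1.14 in control water replicate 2.

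The 4 genes did not keep fixed proportions, as the plot of ratios within libraries shows. BC100530 over Stfa1, in normalised counts, was 8.78, 8.16 and 6.48 in mutant oil/acetone libraries and 6.06, 6.16 and 6.40 in control oil/acetone libraries. It was 0.944 and 1.38 in mutant water libraries and 1.69 and 5.22 in control water libraries. BC100530 thus exceeded Stfa1 by more in every oil/acetone library than in any water library. Stfa3 made up 58.8% to 70.4% of the 4 genes' summed level per kilobase in mutant oil/acetone libraries and 68.2% to 76.9% in control oil/acetone libraries. It made up 68.8% and 72.1% in mutant water libraries, and 77.9% and 41.8% in control water replicates 1 and 2.

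The comparison of mutants with controls under oil/acetone asked whether loss of the gasdermins altered the stefin genes in treated skin. Gsdma3, the floxed target, had 0, 1 and 0 reads in the mutant oil/acetone libraries, against 69, 66 and 161 reads in the control oil/acetone libraries. Under water it had 3 and 0 reads in mutants, against 65 and 302 in controls. Gsdma, the gene the labels call Gsdma1, still had reads in every mutant library (140 to 939), and a value per gene cannot show whether part of it is deleted.

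Mutants had higher values of all 4 stefin genes under oil/acetone, with no overlap between libraries, and none of the 4 differences passed the test adjusted over all genes. By this criterion alone 8.55% of the 15958 genes were higher in mutants. The log2 difference was 0.74 ± 0.35 for Stfa3 (95% interval -0.03 to 1.52, limma adjusted p = 0.427) and 1.03 ± 0.56 for Stfa1 (-0.21 to 2.27, adjusted p = 0.482). For BC100530 it was 1.35 ± 0.83 (-0.50 to 3.20, adjusted p = 0.531) and for BC117090 1.36 ± 0.58 (0.09 to 2.64, adjusted p = 0.400). The median of the 4 differences was 1.19, beside 0.02 over all genes tested. This median is a description, because the choice of the 4 genes used these oil/acetone libraries and Stfa1, BC100530 and BC117090 may share reads. The genes nearest in profile to Stfa3 and Stfa1, given further on, also had positive differences. Hair shaft genes were also higher in these mutant libraries (9 of 9 positive, 5 without overlap), with sums of 319.8, 2557 and 835.0, against 226.1, 157.7 and 225.2 in the control libraries. Red blood cell genes were higher likewise (5 of 5 positive, 4 without overlap). In both lists limma, edgeR and DESeq2 called 0 genes, with 1 hair shaft and 3 red blood cell genes at an unadjusted limma p under 0.05, and their part in the stefin differences was not tested.

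No gene was called by limma in this comparison (0 of 15958, 0.00%), while 1908 genes (12.0%) had an unadjusted p under 0.05. edgeR also called 0 genes, with 1905 at an unadjusted p under 0.05, and DESeq2 called 168, of which 97 were higher and 71 lower. BC117090 was among the DESeq2 calls (adjusted p = 0.0307), against a range of 0.0307 to 0.901 over the alternatives for that gene. The intervals include differences of more than 1 on the log2 scale for all 4 genes, so a missing call does not show equal levels.

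Under water no order of the genotypes could be given. The log2 difference between mutants and controls was -0.47 ± 0.43 for Stfa3 (limma adjusted p = 0.963), -0.15 ± 0.69 for Stfa1 (adjusted p = 0.994) and -1.53 ± 1.02 for BC100530 (adjusted p = 0.963). BC117090 had 0 and 0 reads in mutants, against 0 and 5 in controls, too few for a difference to be read, and its fitted value is set by the added count. The libraries overlapped in all 4 genes, beside 16.9% of all genes that were higher and 17.8% that were lower in mutants without overlap. Without control water replicate 2 the difference changed sign for Stfa3 (0.24), Stfa1 (1.09) and BC100530 (0.54). No gene was called by limma (0 of 15958, 0.00%), with 795 at an unadjusted p under 0.05 (4.98%). edgeR called 0 genes, with 885 at an unadjusted p under 0.05, and DESeq2 called 6.

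**Figure D3:**
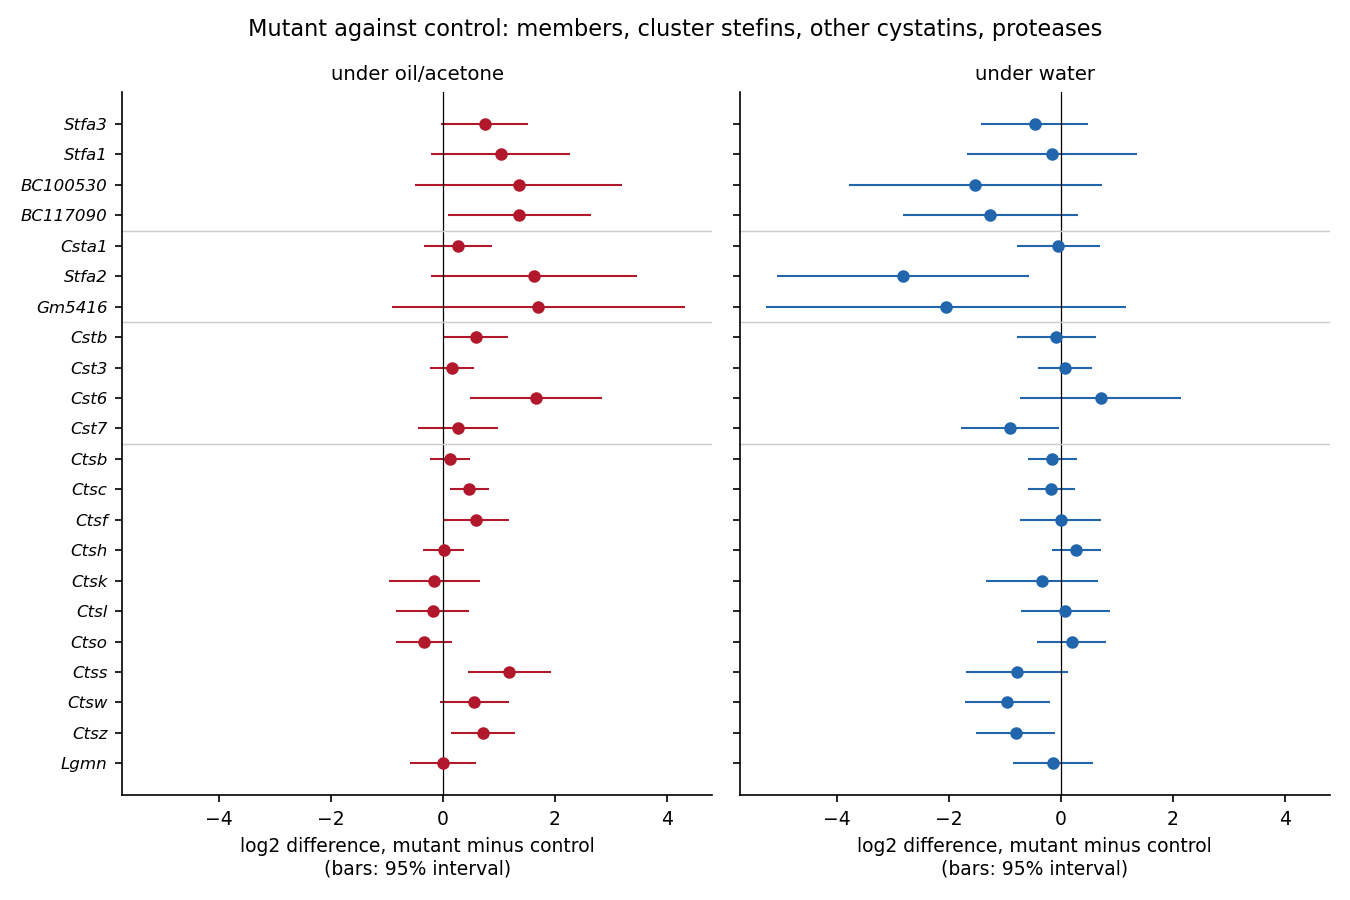
Log2 difference between mutants and controls under oil/acetone (left) and under water (right), with 95% intervals from limma, for the 4 stefin genes, other stefins of the cluster, other cystatins and cysteine proteases. The 4 stefin genes lay at 0.74 to 1.36 under oil/acetone and 3 of them at -1.53 to -0.15 under water, where the value of BC117090 rests on 5 reads. No gene in the plot passed the adjusted limma test.

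Of the cluster's other stefins, 3 of 8 in the list were measured and the other 5 had no value in any library. Csta1, the mouse gene nearest in name to human CSTA, had 1027, 1344 and 621.8 normalised counts in mutant oil/acetone libraries and 245.2 and 227.5 in mutant water libraries. It had 983.9, 651.9 and 753.6 in control oil/acetone libraries and 203.7 and 289.5 in control water libraries. Csta1 rose under oil/acetone in mutants, by 2.004 ± 0.31 on the log2 scale (limma adjusted p = 0.0104), beside 6.74% of all genes called higher in that comparison. In controls its difference was 1.69 ± 0.31 (adjusted p = 0.0914), beside 0.0564% called higher and 0.00627% called lower. Its genotypes differed by 0.28 ± 0.27 under oil/acetone (adjusted p = 0.691).

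Stfa2, between BC100530 and Stfa3 on the chromosome, had 35.2, 221.0 and 61.3 normalised counts in mutant oil/acetone libraries and 0 in both mutant water libraries. It had 9.96, 37.3 and 39.5 in control oil/acetone libraries and 1.92 and 15.9 in control water libraries. It rose in mutants, with a fitted log2 difference of 6.31 ± 0.93 that depends on the added count (limma adjusted p = 0.00946). In controls the difference was 1.87 ± 0.93 (adjusted p = 0.425). Stfa2 and Gm5416 passed the filter on low values through their oil/acetone libraries, so their tests between treatments are not independent of that filter. Gm5416 reached 46.7 normalised counts at most, and its differences of 4.33 in mutants (adjusted p = 0.0540) and 0.58 in controls (adjusted p = 0.880) did not pass with limma over all 10 libraries. In mutants Gm5416 was called by DESeq2 and by limma with the 2 groups alone. The calls of Csta1 and Stfa2 in mutants were lost without either mutant water library (adjusted p up to 0.107 for Csta1).

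Within 500 kb of the 4 genes 23 other genes were tested, the 3 stefins included. In mutants limma called 5 higher and 4 lower under oil/acetone, beside 13.4% of all genes in either direction (6.69% lower). In controls limma and edgeR called 0, with 8 at an unadjusted limma p under 0.05 and beside 0.0627% of all genes called. DESeq2 called 2 in controls, Csta1 higher and Cd86 lower, and limma without control oil/acetone replicate 1 called 4. The 5 were Csta1, Stfa2, Gm15845, Ccdc58 and Dtx3l, and the 4 were Gm26838, Golgb1, Iqcb1 and Kpna1. Gm15845 had a log2 difference of 4.16 ± 0.56 in mutants, and the 2 other higher genes had 0.81 (Ccdc58) and 0.75 (Dtx3l, a ubiquitin ligase that partners Parp9). Gm15845 is the antisense transcript that overlaps BC100530, so its call may rest on BC100530 reads. Stfa2 and Gm15845 passed the filter on low values through their oil/acetone libraries, and Gm26838 through its water libraries. Their calls are thus not independent of that filter. The 14 genes that limma over all 10 libraries called in neither genotype were Gm5416, 4930565N06Rik, Cd86, Eaf2, Fam162a, Gm15564, Gm49599, Hcls1, Hspbap1, Ildr1, Parp14, Parp9, Slc15a2 and Wdr5b. DESeq2 and limma with the 2 groups alone each called 7 higher and 6 lower in mutants. None of the 9 limma calls held without mutant water replicate 1 or without mutant water replicate 2.

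**Figure D4:**
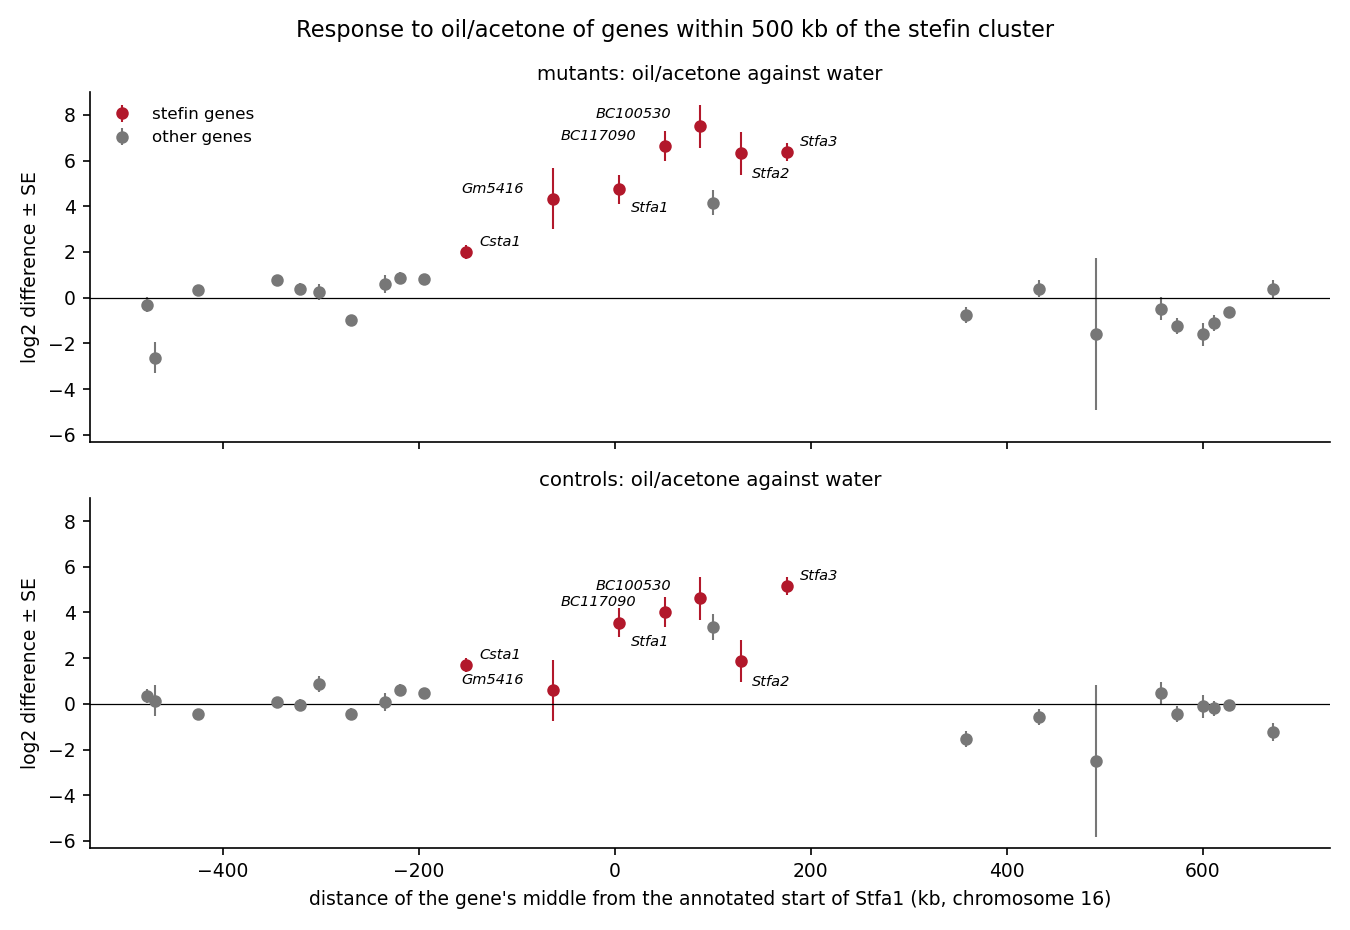
Log2 difference between oil/acetone and water with its standard error for each gene tested within 500 kb of the 4 stefin genes, by distance of the gene's middle from the annotated start of Stfa1, in mutants (top) and controls (bottom). Stefin genes are red. Stfa3, BC100530, BC117090 and Stfa2 reached 6.31 to 7.50 in mutants, and the grey point among them is Gm15845, at 4.16. Gm15845 is an antisense transcript that overlaps BC100530, and its reads may be reads of BC100530.

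Of 15 cystatins outside the cluster 5 were tested, and limma and edgeR called 0 of them in each of the 4 comparisons, with 1 or 2 at an unadjusted limma p under 0.05. DESeq2 called Cst6 higher in mutants against controls under oil/acetone and in mutants under oil/acetone against water, and Cst7 lower in controls under oil/acetone against water. Limma with the 2 groups alone also called Cst6 in mutants between treatments. Cst6, a secreted inhibitor of the epidermis that blocks legumain and cathepsin L, had 31714 ± 17808 normalised counts in mutant oil/acetone libraries, against 8993 ± 1376 in control oil/acetone libraries (SD, n = 3). That is a log2 difference of 1.66 ± 0.53 with no overlap, as for 8.55% of all genes (limma adjusted p = 0.333). Cstb, the other intracellular stefin, averaged 5444 ± 1838 in mutant and 3500 ± 181 in control oil/acetone libraries (SD, n = 3), a difference of 0.59 ± 0.26 (adjusted p = 0.411). Between oil/acetone and water, Cstb differed by 0.53 ± 0.29 in mutants (adjusted p = 0.212) and by -0.13 ± 0.29 in controls (adjusted p = 0.875). Cst3, the widely secreted cystatin C, differed between genotypes under oil/acetone by 0.16 ± 0.18 (adjusted p = 0.713). Cst7, a cystatin found in immune cells, differed there by 0.27 ± 0.33 (adjusted p = 0.746).

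The papain-like cathepsins, the proteases that stefins block, and legumain (Lgmn), which other cystatins block, were all measured. Limma and edgeR called 0 of these 11 genes in each of the 4 comparisons, with 2 to 4 at an unadjusted limma p under 0.05. Between treatments in mutants, DESeq2 called Ctsz and Ctso, and limma with the 2 groups alone called Ctsz, Ctss and Ctso. Cathepsin B (Ctsb) averaged 8448 ± 618 normalised counts in mutant and 7768 ± 645 in control oil/acetone libraries (SD, n = 3), a log2 difference of 0.12 ± 0.16 (limma adjusted p = 0.768). Cathepsin L (Ctsl) averaged 1673 ± 673 in mutant and 1847 ± 563 in control oil/acetone libraries, a difference of -0.19 ± 0.29 (adjusted p = 0.809). Cathepsin H (Ctsh) differed there by 0.01 ± 0.16 (adjusted p = 0.988). Cathepsin S (Ctss), which works in antigen-presenting cells, averaged 466 ± 106 in mutant and 208 ± 65.6 in control oil/acetone libraries, a difference of 1.18 ± 0.34 with no overlap (adjusted p = 0.314).

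Cathepsins C (Ctsc), F (Ctsf) and Z (Ctsz) were also higher in mutants without overlap under oil/acetone, at 0.47, 0.59 and 0.72 on the log2 scale (limma adjusted p = 0.335, 0.417 and 0.358). With Ctss that made 4 of 11 genes, beside 8.55% of all genes. Ctso was lower without overlap, at -0.34 (adjusted p = 0.557), beside 8.23% of all genes. The genotype differences of Ctsk (-0.15), Ctsw (0.56) and Lgmn (0.00) came with overlapping libraries. Between oil/acetone and water, the member of this list nearest to a call was Ctso in mutants, at -0.82 ± 0.25 (adjusted p = 0.0540). The median difference of the 11 genes between oil/acetone and water was 0.32 in mutants and -0.29 in controls, beside 0.01 and 0.00 over all genes.

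Genes of the cornified envelope, the crosslinked protein shell that stefin A joins, were followed as a further list, of which 20 of 21 were tested. Under oil/acetone limma called 9 higher and 1 lower in mutants, beside 6.74% and 6.69% of all genes. In controls it called 1 higher, beside 0.0564% of all genes, where DESeq2 called 7, edgeR 0 and limma with a replicate block 4. Krt1, a keratin of the suprabasal layers and among the 3 with the highest mean, averaged 158776 ± 67594 normalised counts in mutant oil/acetone and 40164 ± 9308 in mutant water libraries, a rise of 1.92 ± 0.37 (limma adjusted p = 0.0164). Krt10, its partner, differed by 0.11 ± 0.33 (adjusted p = 0.836) and Lor, the envelope protein loricrin, by 1.55 ± 0.48 (adjusted p = 0.0560). The 1 call in controls was Tgm3, a crosslinking transglutaminase (2.04 ± 0.29, adjusted p = 0.0474), and Ppl, the envelope precursor periplakin, was the gene that fell in mutants (-1.06 ± 0.21, adjusted p = 0.0192). Without mutant water replicate 1 or 2 none of the 10 calls in mutants remained, and the Tgm3 call in controls was lost in 8 of 10 fits that left out a library. Between genotypes limma and edgeR called 0 of 20 under oil/acetone and under water, with 5 and 1 at an unadjusted limma p under 0.05. DESeq2 called Sprr1b, a small proline-rich envelope protein, higher in mutants under oil/acetone. Among the 9 that limma called higher between treatments in mutants, Lce3d passed the filter on low values through its oil/acetone libraries.

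Markers of other cell types were read in the same libraries. A neutrophil list had 8 of 20 genes measured in all libraries, and its sum was 1046 to 1848 in mutant oil/acetone, 1961 to 2232 in control oil/acetone, 2486 to 2513 in mutant water and 2080 to 3094 in control water libraries. Most of that sum was Il1r2, which keratinocytes also express. Of 6 defining neutrophil genes, 2 were measured. The granule gene Ltf had 0 in all 3 mutant oil/acetone libraries and at most 1.99 in control oil/acetone libraries. In the water libraries Ltf had 0 and 69.3 in mutants, against 0 and 268.9 in controls, and the 268.9 was in control water replicate 2, the water library with the highest stefin values. The chemokine receptor gene Cxcr2 had 24.8 to 149.1 in mutant oil/acetone, 12.9 to 62.6 in control oil/acetone, 3.53 to 17.0 in mutant water and 0 to 14.99 in control water libraries. Ly6g, Retnlg, Camp and Ngp had no value in any library, so nothing can be read from them. S100a8, S100a9 and Lcn2, used by neutrophils and by stressed keratinocytes alike, summed to 185.2 to 1482, 162.3 to 817.3, 14.1 to 66.9 and 13.5 to 580.9 in the same order of groups. Their part in the stefin values was not tested.

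The other lists are given in the same order, mutant oil/acetone, control oil/acetone, mutant water and control water. A macrophage and monocyte list (9 of 10 genes) summed to 1388 to 1844, 622.8 to 740.9, 888.1 to 890.8 and 830.4 to 1764. All 9 genes had a positive log2 difference between mutants and controls under oil/acetone, 8 of them without overlap, beside 8.55% of all genes, and all 9 had a negative one under water. Limma and edgeR called 0 in either, with 5 and 3 at an unadjusted limma p under 0.05, and DESeq2 called C1qa, C1qb and Csf1r under oil/acetone. Red blood cell genes (5 of 5) summed to 14407 to 27549, 4427 to 13396, 1176 to 2544 and 3321 to 6497. Keratinocyte markers (10 of 10) summed to 840380 to 1164200, 1028500 to 1213100, 872420 to 880170 and 773980 to 846190, far above the macrophage sum in each group. Keratinocyte transcripts were thus high in every library. Mast cell genes (2 of 5) summed to 0.944 to 17.6, 0 to 13.2, 9.70 to 20.7 and 35.6 to 45.9. The part of macrophage and blood cells in the stefin values was not tested.

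With the 4 stefin genes and Y-linked genes left out, the 5 genes whose profile over the 10 libraries was nearest to that of Stfa3 lay on other chromosomes. Likeness was measured as the root mean square distance between log2 profiles, each centred on its own mean, among 12538 genes, for which the median distance to Stfa3 was 2.89. The 5 nearest were Serpinb3a (0.939), Olah (0.955), Tdh (0.988), Il1f6 (1.04) and Flg (1.14), beside 0.522 to 0.880 for the 3 other stefin genes. Serpinb3a encodes a serpin, Il1f6 the epidermal cytokine interleukin 36 alpha, and Flg the granular-layer protein filaggrin. For Stfa1, with a median distance of 2.20, the 5 nearest were Tdh (0.491), Teddm3 (0.561), Serpinb3a (0.603), Chil1 (0.607) and Il1f6 (0.645), all nearer than BC117090 (0.798), Stfa3 (0.880) and BC100530 (1.12). Of these 5, Teddm3 is on chromosome 16.

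These genes were found by their likeness, so their levels are a description. Serpinb3a averaged 242 ± 244 normalised counts in mutant oil/acetone and 108 ± 52.4 in control oil/acetone libraries (SD, n = 3), and 6.46 ± 2.90 in mutant water and 3.76 ± 3.96 in control water libraries (SD, n = 2). Flg averaged 5073 ± 3929, 2869 ± 963, 236 ± 63.9 and 288 ± 179 in the same order of groups. Chil1 averaged 764 ± 411, 250 ± 75.0, 25.8 ± 7.21 and 69.1 ± 69.2. All 3 were thus high in both oil/acetone groups and low in both water groups, as the stefin genes were. Between mutants and controls under oil/acetone, every gene nearest in profile had a positive log2 difference, from 0.58 for Flg to 1.87 for Olah. Of these genes, only Olah and Teddm3 (1.76) were higher in mutants without overlap. The likeness used these same libraries.

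Since the members were all high under oil/acetone, the 250 bases before the start of 3 of them and of Csta1 are shown, in the direction of transcription, from RefSeq on GRCm38.p6. The windows are chr16:36455393-36455642 (Stfa3, minus strand), chr16:36276898-36277147 (Stfa1, plus strand), chr16:36367571-36367820 (BC100530, minus strand) and chr16:36131190-36131439 (Csta1, minus strand). Capitals mark a match to TTGCNNAA, a core of the C/EBP motif, on either strand.
Stfa3: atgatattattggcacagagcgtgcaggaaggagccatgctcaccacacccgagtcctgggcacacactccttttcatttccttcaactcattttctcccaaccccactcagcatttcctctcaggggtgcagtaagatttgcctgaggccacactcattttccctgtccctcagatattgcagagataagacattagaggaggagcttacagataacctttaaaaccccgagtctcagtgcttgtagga
Stfa1: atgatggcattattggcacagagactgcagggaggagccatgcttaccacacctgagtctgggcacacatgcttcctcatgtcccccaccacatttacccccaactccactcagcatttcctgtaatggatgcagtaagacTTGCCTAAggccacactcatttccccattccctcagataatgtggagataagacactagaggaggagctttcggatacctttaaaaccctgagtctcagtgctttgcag
BC100530: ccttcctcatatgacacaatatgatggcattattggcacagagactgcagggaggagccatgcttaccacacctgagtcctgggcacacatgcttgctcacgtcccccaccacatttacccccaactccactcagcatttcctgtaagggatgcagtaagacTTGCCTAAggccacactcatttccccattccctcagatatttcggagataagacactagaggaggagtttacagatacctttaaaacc
Csta1: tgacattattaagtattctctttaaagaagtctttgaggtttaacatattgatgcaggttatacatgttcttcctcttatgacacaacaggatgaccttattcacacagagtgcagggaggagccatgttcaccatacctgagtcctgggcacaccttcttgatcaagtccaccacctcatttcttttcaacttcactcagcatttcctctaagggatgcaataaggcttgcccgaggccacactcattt
The Stfa1 and Stfa3 windows were alike at 209 of 253 aligned positions (82.6%), those of Stfa1 and BC100530 at 220 of 271 (81.2%) and those of Stfa3 and BC100530 at 194 of 273 (71.1%). The Csta1 window was alike with these 3 at 37.9% to 48.4% of 318 to 340 aligned positions. Gaps count as unlike, so a shifted window start lowers these shares. The stretch that ends the Csta1 window, ggccacactcattt, also stands in the other 3, further from their ends. The Csta1 shares therefore do not show how far its promoter has diverged. TTGCNNAA began at position -109 in Stfa1 and at position -88 in BC100530, counted from 0 at the first base of the RefSeq gene. For Stfa1, BC100530 and Csta1 (chr16:36119946-36131241) that base lies inside the gene's GENCODE span, so these 3 windows lie partly within the span. TTGCNNAA was absent as letters from the Stfa3 and Csta1 windows of 300 bases, and 10.8% of 32851 RefSeq promoters of that length held it.

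The other 6 motifs were searched on both strands of the 300 bases from 250 before to 50 after the start: the TATA box TATAAA, the AP-1 motif TGANTCA, the STAT motif TTCNNNGAA, the GRHL motif AACCNGTT, the E-box CACGTG and, as core of the antioxidant response element, TGACNNNGC. Among the promoters of Stfa3, Stfa1, BC100530 and Csta1 the only match was TGANTCA at position 29 of Stfa3, which 7.8% of promoters held. The shares of promoters with the others were 13.6% (TATA box), 8.3% (STAT), 2.1% (GRHL), 7.2% (E-box) and 12.4% (antioxidant response element). A match describes letters in this window and no binding was measured.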

How the data were processed

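Values are normalised gene counts, a signal on a linear scale that the authors deposited as 1 value per gene and library. The submitters' processing notes name Trimmomatic 0.38, featureCounts 2.0.0 and DESeq2 1.26.0 with the build GRCm38/mm10. No label names an aligner, an annotation release or the use of strand. The values are whole multiples of 1 read's worth (100% within 0.1 read in every library), which gave back 15914663 to 21812292 reads per library. The files list 16557 genes for mutant oil/acetone, 16014 for control oil/acetone, 17983 for mutant water and 17916 for control water, and 15987 in all 10. All 17983 identifiers matched GENCODE M21 for GRCm38.

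Values were scaled by a median-of-ratios factor (0.9947 to 1.004). Genes with 10 or more in at least 2 libraries (15958) were tested with limma 3.58.1 (R 4.3.3, trend) on log2(value + 1), over all 10 libraries in a model of 4 group means, two-sided, with Benjamini-Hochberg adjustment over all of them and a threshold of 0.05. The added 1 makes differences of low genes too small. No test was made of the 4 genes' response to oil/acetone. Exact 95% intervals and the floor of 3 reads cover counting error only. The alternatives were other added counts, no filter, other scalings, fewer libraries, a replicate block, and edgeR 4.0.16 and DESeq2 1.42.0 on recovered reads.

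The 4 genes and all lists were chosen with earlier results of these data known. The 4 genes, tested genes of the cluster or within 500 kb, other cystatins and cathepsins whose group mean reached 50, the 3 envelope genes of highest mean and the 5 genes nearest in profile were to be named; a Pearson correlation planned beside the last is not reported. Tgm3, Ppl, Sprr1b, Lce3d, C1qa, C1qb, Csf1r, Il1r2 and Cxcr2 were named after their values were seen. Same-numbered libraries were not treated as pairs in the main fit.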

Additional observations from a re-analysis of the deposited data

Results flagged for a closer look

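Cathepsin S (Ctss) was flagged because its genotype difference ran in opposite directions under the 2 treatments. The log2 difference between mutants and controls was 1.18 under oil/acetone and -0.78 under water, with no overlap of libraries in either. The same gene differed between oil/acetone and water by 0.87 in mutants and by -1.10 in controls, again without overlap. Cathepsin Z (Ctsz) was flagged for the same reason, with 0.72 between mutants and controls under oil/acetone and -0.81 under water. None of these values passed the adjusted limma test over all 10 libraries, and whether the differences themselves differ was not tested. The comparisons share libraries, so their values are not independent.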

How the results depend on the processing

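The log2 differences of the 4 stefin genes between mutants and controls under oil/acetone stayed positive under all alternatives run, and the 1 call among them was BC117090 with DESeq2 (1.38, adjusted p = 0.0307, with 0.0307 to 0.901 over its alternatives). Leaving out 1 library gave 0.51 to 0.95 for Stfa3, 0.67 to 1.32 for Stfa1, 0.97 to 1.66 for BC100530 and 1.20 to 1.52 for BC117090. The number of genes called there was 0, and it was 2 with the 2 groups alone, 2 with genes listed in both groups, 168 with DESeq2 and 0 to 51 without 1 library, 51 being without mutant oil/acetone replicate 1 and 4 without either control water library.

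Under water, leaving out 1 library gave -1.18 to 0.24 for Stfa3, -1.41 to 1.09 for Stfa1, -3.60 to 0.54 for BC100530 and -2.51 to 0 for BC117090, whose values rest on 5 reads. The signs of the other 3 turned without control water replicate 2, and for Stfa1 also without mutant water replicate 1 (0.10). BC117090 has no value there with the 2 groups alone or with genes listed in both groups, since it fell below the filter. DESeq2 called 6 genes and limma 0, with 0 to 1 without 1 library, the 1 being without control water replicate 2.

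Between oil/acetone and water in mutants, 2143 genes were called (1076 higher, 1067 lower). Scaling to equal totals gave 1346 higher and 845 lower and moved the median of all genes to 0.13. The number was 3892 with the 2 groups alone, 3907 with genes listed in both groups, 3610 with DESeq2 and 9 to 3141 without 1 library, with 9 and 34 without mutant water replicates 1 and 2, 424 and 239 without mutant oil/acetone replicates 2 and 3, and 839 without control oil/acetone replicate 2. BC117090 had 7.63 with 0.5 added, 3.74 with 8 added, 9.67 with edgeR and 9.03 with DESeq2. In controls 10 genes were called, 352 with DESeq2 and 6 to 470 without 1 library (470 and 6 without control oil/acetone replicates 1 and 2, 18 without control water replicate 1). There, leaving out 1 library gave 4.45 to 5.88 for Stfa3, 2.30 to 4.80 for Stfa1, 2.55 to 6.69 for BC100530 and 2.77 to 5.28 for BC117090, which had 2.19 with 8 added. The causes were not tested.

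Whether the replicate numbers pair the libraries cannot be settled from these values. The correlations of same-numbered libraries, as deviations from their group means, were 0.307, -0.105 and 0.131 under oil/acetone. Differently numbered ones there ran from -0.337 to 0.257. Under water the values were 0.0281 and -0.0281, equal but for sign because each group has 2 libraries. With a replicate block 0 genes were called between genotypes under either treatment, 2766 between treatments in mutants and 58 in controls. At an unadjusted limma p under 0.05 the block gave 2806 genes between genotypes under oil/acetone, against 1908 without it. Under water it gave 1188, against 795. Between genotypes under oil/acetone the limma adjusted p with the block was 0.176 for Stfa3, 0.192 for Stfa1, 0.271 for BC100530 and 0.256 for BC117090.

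With 2 water libraries per genotype, control water replicate 2 sets the sign of the genotype difference of 3 of the 4 genes under water, and the Y-linked division by treatment touches every comparison of oil/acetone with water.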
